A study of Mus musculus with 6 samples.

Results

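The Trem2 receptor axis was described in mouse alveolar macrophages with a myeloid deletion of Rack1 through 7 genes taken by name from the deposited table: Trem2, Tyrobp, Hcst, Syk, Apoe, Gpnmb and Trem1. All 7 were found once each among 26428 genes, and all 7 passed the expression filter that left 14797 genes for testing. RNA sequencing was done on 6 libraries of alveolar macrophages, the phagocytes that live in the air spaces of the lung. The 3 control libraries are titled WT and carry the genotype label Rack1F/-, so they are not labelled as plain wild type. The 3 knockout libraries carry the genotype label Rack1{delta}Mye. The promoter that drives the deletion, the age and sex of the mice, their number per library and any pooling were not found in the labels. The p-values therefore reflect only how far these 6 libraries scatter, which may be technical.

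TREM2 is a surface receptor of macrophages that senses lipids and lipoproteins but has no signalling motif of its own. It sits in the membrane beside the adaptor DAP12, encoded by Tyrobp, whose activation motif (ITAM) is phosphorylated by Src family kinases and then recruits the kinase SYK, while the sister adaptor DAP10, encoded by Hcst, recruits phosphoinositide kinase. APOE is a lipoprotein component that binds TREM2, GPNMB is a glycoprotein made by lipid-loaded macrophages in which TREM2 is also high, and TREM1 is a related receptor that uses the same DAP12 adaptor to amplify inflammatory signalling.

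The estimated counts summed to between 51894849 and 66163430 units per library, about 4 units to a read pair. Rack1, the targeted gene, stood at 77.3, 83.5 and 81.1 counts-per-million (CPM, scaled by TMM) in control and at 38.6, 38.2 and 34.1 CPM in knockout. Of 16 alveolar macrophage markers found in the table, all were detected, and their summed level of 80520 to 157300 CPM in control and 92210 to 162700 CPM in knockout overlapped. Single markers differed: 4 of the 16 were called higher and 4 lower, beside 11.9% called over all genes tested. The scavenger receptor gene Marco and the carbonic anhydrase gene Car4 rose by 2.11 and 2.52 on the log2 scale, and the lectin gene Siglecf and the lipid droplet gene Cidec fell by 0.67 and 1.52 (edgeR adjusted p = 0.000265, 7.1e-05, 0.00557 and 0.000452), and these 4 calls held whichever library was left out. The Y-linked Eif2s3y was 0.357 to 0.681 CPM in 4 libraries, 16.0 CPM in knockout replicate 1 and 2.68 CPM in replicate 2, and no label gives the sex. Colon epithelium markers summed to 13.0 to 18.5 CPM in control and 0.183 to 1.497 CPM in knockout. Larger sums, overlapping between groups, came from lung epithelium markers, at 937.3 to 1327 CPM in control and 880.8 to 1539 CPM in knockout. T cell markers summed to 381.8 to 528.6 and 419.1 to 703.6 CPM, and B cell markers to 4.94 to 117.7 and 50.8 to 70.3 CPM. The part of sex and of these transcripts in the results was not tested. Scaling matters here: TMM placed the median log2 fold change of all genes at 0.01, and scaling to library totals placed it at -0.31.

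Trem2 was the member with the largest difference, about 4.11 times higher in knockout. Trem2 (ENSMUSG00000023992) lies on chromosome 17 at 48346401 to 48354147, plus strand, of GRCm38. Its level was 68.1, 71.4 and 66.5 CPM in control replicates 1, 2 and 3 and 298.7, 238.0 and 310.7 CPM in knockout replicates 1, 2 and 3. On this scale the control libraries lay close together, and the lowest knockout library stood far above the highest control library. The means were 68.7 ± 2.49 and 282.5 ± 39.0 CPM (SD, n = 3 per group), and the log2 fold change of 2.04 had a standard error of 0.14 and a 95% interval of 1.73 to 2.35 (adjusted p = 1.83e-05 in edgeR's quasi-likelihood test). It ranked 17 of 14797 genes by p, and 37 of 368 genes called higher with a mean of at least 5 FPKM when ordered by fold change. Its call held in all 17 alternative fits, with log2 fold changes of 1.64 to 2.17.

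**Figure D1:**
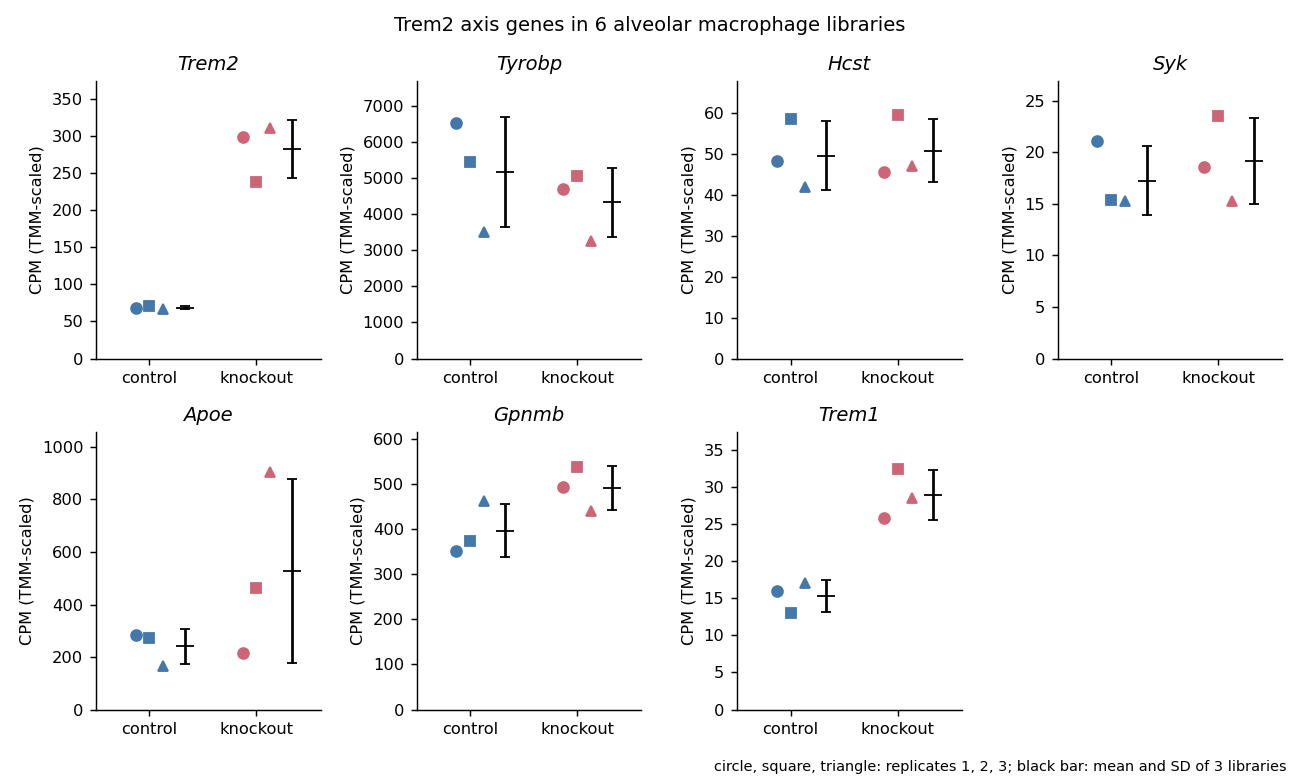
Levels of the 7 genes in CPM (TMM-scaled, linear axes from 0) in each control (blue) and knockout (red) library, with the mean and SD of 3 libraries as black bars. Trem2 and Trem1 show no overlap between groups, and Apoe runs from 215.7 to 906.6 CPM within the knockout group.

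Across all genes tested, 11.9% were called in either direction and 5.93% were called higher, and 31.2% showed no overlap between the groups (15.3% higher and 15.9% lower in knockout). Among the 7 members, 2 were called, Trem2 and Trem1, both higher, and these were also the 2 whose groups did not overlap in CPM. The median log2 fold change of the 7 was 0.31 against 0.01 over all genes tested. With so few members, and with members chosen while earlier results were known, the count is a description.

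The promoters of the 2 called receptors are shown so that the sequence before each start can be read beside its change. Both come from RefSeq on GRCm38.p6 and hold the 250 bases before the annotated start; the Trem2 start is that of the deposited table, and the Trem1 start lies 29 bases before it. Capitals mark the PU.1 core GAGGAA, bound by the main macrophage lineage factor, and the AP-1 motif TGANTCA, each searched on both strands.
Trem2, chr17:48346151-48346400, plus strand: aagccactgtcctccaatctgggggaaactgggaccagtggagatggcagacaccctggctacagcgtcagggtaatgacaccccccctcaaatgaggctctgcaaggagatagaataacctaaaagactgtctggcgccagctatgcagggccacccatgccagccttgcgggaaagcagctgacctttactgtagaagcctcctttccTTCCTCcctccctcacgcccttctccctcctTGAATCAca
Trem1, chr17:48232489-48232738, plus strand: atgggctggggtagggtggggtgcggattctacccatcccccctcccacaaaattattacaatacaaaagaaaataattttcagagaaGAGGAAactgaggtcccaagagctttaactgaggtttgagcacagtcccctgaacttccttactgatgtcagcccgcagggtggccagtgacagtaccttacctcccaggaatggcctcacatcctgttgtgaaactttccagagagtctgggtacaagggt
In Trem2 the PU.1 core began 40 bases and the AP-1 motif 9 bases before the start, without overlap, and in Trem1 the PU.1 core began 162 bases before the start. Of 32851 RefSeq mouse promoters of the same length, 23.2% hold the PU.1 core and 6.75% the AP-1 motif, against which single matches are to be read. Apoe also held a PU.1 core, at the far edge of its window, 250 bases before its start. Another motif, the E-box CACGTG bound by the MiT factors that are known to drive Gpnmb, is in 6.02% of promoters and was found in none of the 6 member promoters that the RefSeq table holds, those of Trem2, Hcst, Syk, Apoe, Gpnmb and Trem1. These are matches of letters in a window and say nothing of binding.

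Trem1, the inflammatory sister receptor, was about 1.89 times higher in knockout. Trem1 (ENSMUSG00000042265) lies on chromosome 17 at 48232768 to 48246924, plus strand. It stood at 16.01, 12.95 and 17.01 CPM in control and at 25.8, 32.4 and 28.5 CPM in knockout, so the groups did not overlap on this scale. The log2 fold change of 0.92 had a standard error of 0.15 (edgeR adjusted p = 0.00404). On the deposited FPKM the groups touched, at 4.55 to 6.99 in control and 6.63 to 9.76 in knockout, and on library totals, where 1.96% of genes were called higher, the log2 fold change was 0.59 (edgeR adjusted p = 0.203). The call also missed without knockout replicates 1 and 2, at 0.89 (edgeR adjusted p = 0.0786). Neutrophils also express Trem1. Of 12 neutrophil markers in the table, 8 were tested, 0 were higher and 3 were lower, beside 5.93% and 6.01% of all genes. In CPM scaled by TMM, the summed level of the 12 was 53.5 to 80.3 in control and 113.6 to 123.7 in knockout. Of this, Retnlg, a resistin-like gene, was 0 to 11.9 and 44.1 to 63.2 CPM. Without the TMM factors the sums of the 2 groups overlapped. Of the 3 lower markers, Csf3r and Ltf kept their calls whichever library was left out (edgeR adjusted p up to 0.0466 and 0.04). On library totals Csf3r and Ltf were at -1.84 and -2.31 (edgeR adjusted p = 0.0118 and 0.00414). The defining marker Ly6g was 0.163 to 0.312 CPM in control and 0 in every knockout library, where a count of 0 allows up to 0.199 to 0.29 CPM, and its lower call was lost whichever library was left out (edgeR adjusted p = 0.0726 to 0.117). Ly6g is thus too low to compare between groups, and the part of neutrophils in the Trem1 values was not tested.

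The Trem genes form a cluster on chromosome 17, and the differences within it were uneven. Of 8 listed family names, 6 were in the table and 5 were tested: Trem1 and Trem2 were called higher, and 3 members did not pass. Over all genes, 5.93% were called higher. Trem3, a receptor that is a pseudogene in human, lies 852 bases past the end of Trem1. It stood at 2.53 to 3.04 CPM in control and 4.12 to 4.47 CPM in knockout, a log2 fold change of 0.61 (edgeR adjusted p = 0.104). Treml4, a Trem-like receptor of myeloid cells, was at 23.1 to 31.9 CPM in control and 23.7 to 27.7 CPM in knockout, with a log2 fold change of -0.01 (edgeR adjusted p = 0.99). Treml2 was near its limit of detection, at 0.0648 to 0.723 CPM in control and 0.762 to 2.61 CPM in knockout (log2 fold change 2.14, edgeR adjusted p = 0.096). Treml1, the platelet member of the family, had no count in 5 libraries and 14 units in knockout replicate 3, where a count of 0 allows up to 12 units (3 read pairs).

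One further gene of the cluster, B430306N03Rik, was added after its values were seen; RefSeq lists Treml6 as its synonym. It lies 19376 bases before Trem2 on the same strand. It stood at 1.72, 2.33 and 3.74 CPM in control and 7.14, 10.6 and 15.5 CPM in knockout, with no overlap between groups (log2 fold change 2.08, standard error 0.33, edgeR adjusted p = 0.00309). Past the cluster, 32737 bases beyond Trem2, Nfya, a subunit of a general transcription factor, was at 0.21 (edgeR adjusted p = 0.759), and the next gene, Oard1, at -0.16 (edgeR adjusted p = 0.603).

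**Figure D2:**
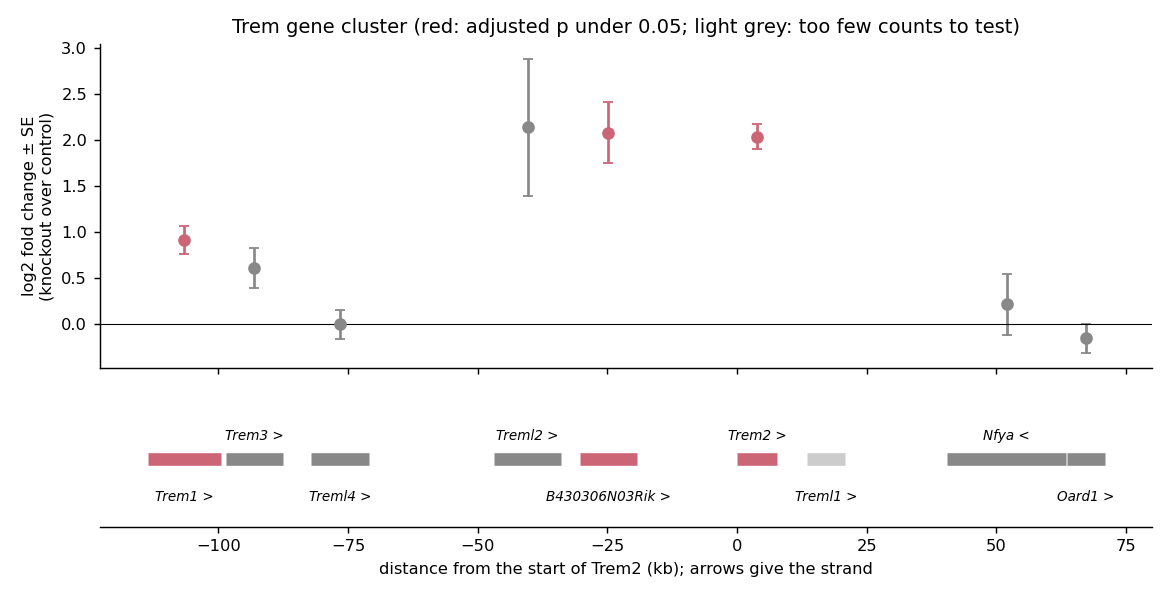
Log2 fold changes with standard errors (top) of the genes of the Trem cluster, drawn at their distance in kb from the start of Trem2 (bottom; bars are gene spans, arrows strands). Trem2 and B430306N03Rik lie near 2, Trem1 at 0.92 and Treml4 near 0; red marks adjusted p under 0.05 and light grey the untested Treml1.

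The adaptor DAP12 was among the most abundant transcripts of these cells and was not called. Tyrobp (ENSMUSG00000030579) lies on chromosome 7 at 30413760 to 30417582, plus strand. It ranked 7 to 12 by FPKM among all genes in the 6 libraries. Its level was 6536, 5445 and 3517 CPM in control and 4702, 5054 and 3252 CPM in knockout, and the groups overlapped, with replicate 3 the lowest in each. The log2 fold change was -0.25 with a 95% interval of -0.85 to 0.34 (edgeR adjusted p = 0.626). The scale decides this call: on deposited FPKM all knockout libraries, at 5002 to 5756, lay below all control libraries, at 6494 to 8899, and on library totals, where 8.27% of genes were called and 6.31% were called lower, the log2 fold change was -0.57 (edgeR adjusted p = 0.0122).

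Hcst, which encodes the adaptor DAP10, was much less abundant than Tyrobp and overlapped between groups. Hcst (ENSMUSG00000064109) lies on the minus strand of chromosome 7 at 30417712 to 30419854, tail to tail with Tyrobp and 129 bases from its end. It stood at 48.2, 58.6 and 41.9 CPM in control and at 45.6, 59.6 and 47.1 CPM in knockout. The log2 fold change was 0.03 with a 95% interval of -0.31 to 0.38 (edgeR adjusted p = 0.925), and the sign turned on library totals, to -0.29. No source used here says whether counting used strand, so reads that run past the end of Tyrobp cannot be told apart from Hcst reads. Of 5 other ITAM adaptors tested, 0 were called by edgeR with TMM and 1 was called lower on library totals. Fcer1g, the Fc receptor gamma chain, was the abundant one among them, at 7642, 6753 and 4644 CPM in control and 5706, 5889 and 3971 CPM in knockout, and did not pass (log2 fold change -0.29, edgeR adjusted p = 0.536).

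Receptors known to work with DAP12 or DAP10 were called in both directions under TMM and only lower on library totals. Of 24 listed receptors, 20 were in the table and 15 were tested; 2 were higher, 5 were lower and 8 did not pass, with a median log2 fold change of -0.21 against 0.01 over all genes, where 5.93% of genes were called higher and 6.01% lower. On library totals 0 were higher and 5 lower. Clec5a, a lectin receptor that pairs with DAP12, rose from 30.7 to 50.7 CPM in the group means (log2 fold change 0.72, edgeR adjusted p = 0.007), and was at 0.43 on library totals (adjusted p = 0.373). Sirpb1b, an activating signal regulatory protein that pairs with DAP12, stood at 39.9, 41.0 and 36.5 CPM in control and 24.0, 23.7 and 18.3 CPM in knockout (log2 fold change -0.83, edgeR adjusted p = 0.00431). Its near-identical relatives Sirpb1c and Sirpb1a were at -0.66 and -0.66, and the split of reads among these 3 genes is uncertain. Csf1r, the growth factor receptor whose signals DAP12 helps to carry, fell to 42.7, 42.6 and 40.4 CPM from 55.6, 63.0 and 71.5 CPM (log2 fold change -0.60, edgeR adjusted p = 0.0122). Plxna1, a plexin that joins the TREM2 and DAP12 complex in mouse cells, rose by 0.81 on the log2 scale (edgeR adjusted p = 0.0136), against 0.46 on library totals (adjusted p = 0.37).

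Leaving out 1 library at a time, Clec5a, Sirpb1b, Sirpb1c and Csf1r kept their calls in all 6 fits. Plxna1 lost its call in 3 of them, at edgeR adjusted p of 0.0747 and 0.0617 without control replicates 1 and 2 in turn and 0.0657 without knockout replicate 2. Sirpb1a lost it without control replicate 1 or 2 or knockout replicate 3 (0.0662, 0.0717 and 0.0601). Pilrb2, a paired receptor and the remaining lower gene of the list, lost it in 4 of the 6 fits (adjusted p up to 0.0791).

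Syk, the kinase that docks on the DAP12 motif, was a low-level transcript and did not pass the test. Syk (ENSMUSG00000021457) lies on chromosome 13 at 52583173 to 52648792, plus strand. It stood at 21.2, 15.4 and 15.3 CPM in control and 18.6, 23.6 and 15.3 CPM in knockout, with full overlap. In FPKM, which is per length, it was 1.72 to 2.05 in control and 1.52 to 1.91 in knockout. The log2 fold change was 0.15 with a 95% interval of -0.28 to 0.57 (edgeR adjusted p = 0.701), and the sign turned on library totals, to -0.18.

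Around SYK, 7 of 38 tested kinases and effectors were called, 3 higher and 4 lower, with a median log2 fold change of -0.00, beside 11.9% called over all genes. On library totals 0 were higher and 4 lower, so the higher calls depend on the scaling. The kinase gene Lyn, whose product can phosphorylate ITAMs, did not pass, at 0.17 (edgeR adjusted p = 0.43), nor did Fgr, at -0.33 (edgeR adjusted p = 0.2). Rac2, a GTPase that acts on actin and the oxidase, stood at 238.5, 215.7 and 286.9 CPM in control and 526.3, 425.6 and 465.5 CPM in knockout, and rose by 0.94 (edgeR adjusted p = 0.00364), against 0.60 on library totals (adjusted p = 0.0997). Rac2 kept its call whichever library was left out. The calls of the adaptor Lat2, the kinase genes Mapk3 and Akt1, the exchange factor Vav1 and Pik3r5 did not: each was lost in 4 or 5 of the 6 fits, at adjusted p-values up to 0.129.

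Of 27 tested negative regulators of ITAM signalling, 3 were higher, 4 lower and 20 did not pass (median log2 fold change -0.04), beside 5.93% of all genes called higher and 6.01% lower. On library totals 0 were higher and 3 lower. Clec12a, an inhibitory lectin receptor, stood at 31.8, 35.2 and 27.9 CPM in control and 13.9, 16.6 and 16.2 CPM in knockout, and fell by 1.02 on the log2 scale (edgeR adjusted p = 0.00164). Ptpn6, the phosphatase SHP-1, fell by 0.66 (edgeR adjusted p = 0.0148) and Pilra, an inhibitory paired receptor, by 0.53 (edgeR adjusted p = 0.0249). Cd300a, an inhibitory receptor for lipids, rose by 0.82 (edgeR adjusted p = 0.00745), against 0.50 on library totals (adjusted p = 0.313). Inppl1, the phosphatase SHIP2, rose from 1.71, 1.78 and 1.39 CPM to 3.68, 2.58 and 3.94 CPM (edgeR adjusted p = 0.0351), while Inpp5d, the related phosphatase SHIP1 of blood cells, was at -0.00 (edgeR adjusted p = 0.997). Only Clec12a, of the 7 called, kept its call in all 6 fits with a library left out. Ptpn6 lost it without control replicate 1, knockout replicate 2 or knockout replicate 3 (0.0634, 0.0519 and 0.0522), Pilra in 4 fits (up to 0.105), Cd300a without control replicate 1 (0.0514), Inppl1 in 5 fits (up to 0.111), and Inpp5b and Ubash3b in all 6 (up to 0.0936 and 0.188).

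Genes that cut or modulate TREM2 gave 2 higher and 2 lower calls among 17 tested, and 2 higher and 0 lower on library totals. The shares over all genes were 5.93% higher and 6.01% lower, and 1.96% and 6.31% on library totals. The sheddases Adam10 and Adam17, which release the outer part of TREM2, were at -0.15 and -0.21 (edgeR adjusted p = 0.637 and 0.465). The membrane stub is then cleared by gamma-secretase, and its subunit genes split. Aph1c rose from 7.71, 6.06 and 6.25 CPM to 15.8, 20.2 and 15.7 CPM and its near-identical copy Aph1b from 0.826, 1.43 and 0.781 CPM to 5.12, 3.21 and 5.20 CPM (log2 fold changes 1.37 and 2.16, edgeR adjusted p = 0.000782 and 0.00278), with an uncertain split of reads between the copies. The subunit gene Ncstn fell by 0.44 (edgeR adjusted p = 0.0308), and this call was lost in 5 of the 6 fits with a library left out (up to 0.113).

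Because a ratio of FPKM within a library needs no scaling between libraries, the members were also compared with each other inside each library. Trem2 transcript amounted to 0.141, 0.177 and 0.255% of the Tyrobp level in control and 0.857, 0.635 and 1.29% in knockout. The groups did not overlap, and the log2 ratio was higher by 2.26 in knockout (exact two-sided permutation test over 6 libraries, p = 0.1, the smallest this design allows; 0.15 adjusted over 6 ratios). In every library the FPKM of Tyrobp stood far above that of Trem2, by 392 to 712 times in control and 77.6 to 157 times in knockout. The FPKM of Trem2 relative to Hcst was 0.207, 0.178 and 0.232 in control and 0.956, 0.584 and 0.963 in knockout. Relative to Trem1, Trem2 was 2.58, 3.34 and 2.37 in control and 7.01, 4.45 and 6.60 in knockout, a log2 difference of 1.11; for both ratios the exact permutation p was 0.1, or 0.15 adjusted over the 6. The ratio of Hcst to Tyrobp differed by 0.27 (exact permutation p = 0.5, adjusted 0.5) and that of Syk to Tyrobp by 0.37 (exact permutation p = 0.2, adjusted 0.24), both with overlap. These ratios show unequal change between the genes of a pair, not which of them changed. How high 1 gene stands beside another depends on the length that FPKM divides by. Annotated exons cover 4946 bases in Trem2, 722 in Hcst and 667 in Tyrobp. In CPM, which is not per length, Trem2 was at 298.7 and Hcst at 45.6 in knockout replicate 1.

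**Figure D3:**
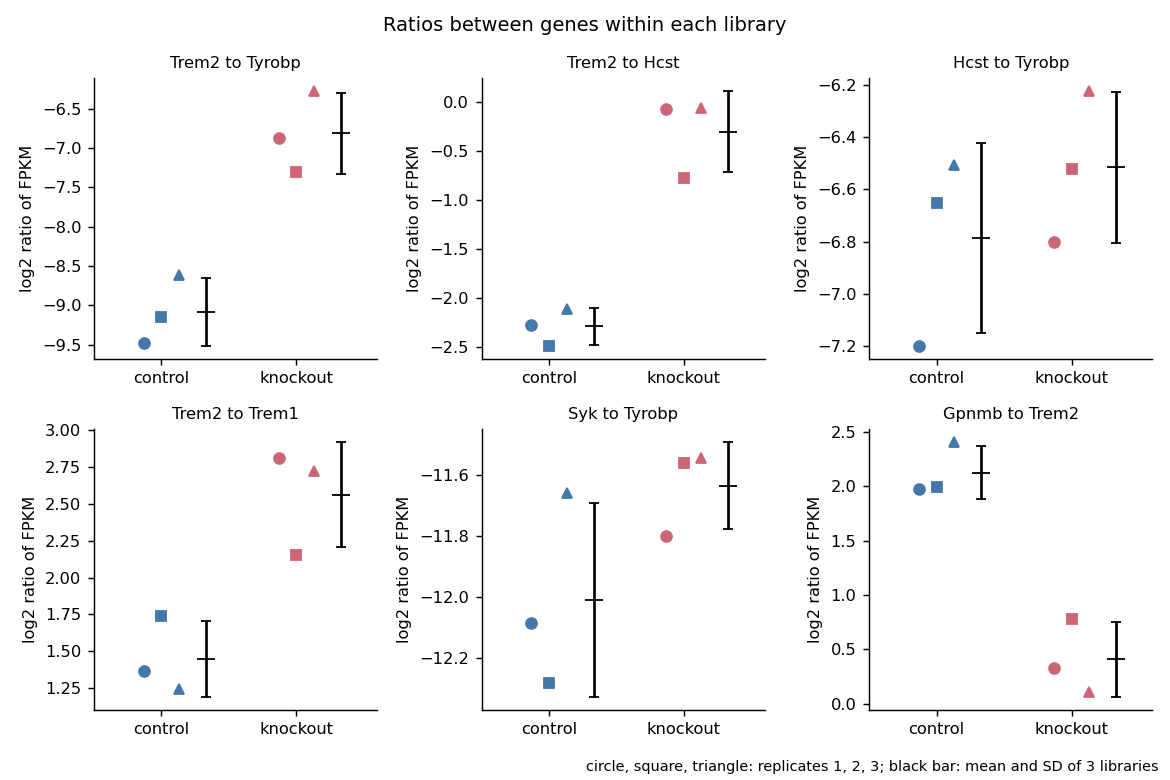
Log2 ratios of FPKM between pairs of the genes in each control (blue) and knockout (red) library, with the mean and SD of 3 libraries as black bars. The ratios of Trem2 to Tyrobp, Hcst and Trem1 rise without overlap, and that of Gpnmb to Trem2, as a linear ratio, is 3.93 to 5.30 in control and 1.08 to 1.72 in knockout.

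Apoe, the lipoprotein ligand, was the member that varied most among knockout libraries, and its difference rested on single libraries. Apoe (ENSMUSG00000002985) lies on the minus strand of chromosome 7 at 19696109 to 19699188. It stood at 285.2, 271.1 and 164.4 CPM in control and at 215.7, 463.1 and 906.6 CPM in knockout. Knockout replicate 1 lay within the control range, replicate 2 above it and replicate 3 far above. The log2 fold change of 1.14 had a standard error of 0.41 (edgeR adjusted p = 0.106). Without knockout replicate 3 it was 0.50 (adjusted p = 0.42), and without knockout replicate 1 it was 1.51 (adjusted p = 0.0198). The coefficient of variation of Apoe among knockout libraries was 66.2%, above that of 99.4% of 3703 genes whose 2 group means summed to at least 10 FPKM, where the median was 11.2%.

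Monocytes and interstitial macrophages make more APOE than resting alveolar macrophages. In CPM scaled by TMM, the summed level of their markers was higher in all 3 knockout libraries. All 14 listed markers were tested, and 4 were called higher and 0 lower, beside 5.93% and 6.01% of all genes. Of these 4 calls, 0 held in all fits with 1 library left out, and 0 held on library totals. The sum of the 14 was 91.7 to 158.5 CPM in control and 190.6 to 372.9 CPM in knockout, with knockout replicate 3 the highest. This gap rests on the TMM factors, 0.961, 1.125 and 1.297 in control and 0.819, 0.799 and 1.091 in knockout. Without these factors, the sums of knockout replicates 1 and 2 fall below that of control replicate 2. The complement gene C1qb stood at 49.9, 43.2 and 28.0 CPM in control and 67.4, 73.5 and 139.8 CPM in knockout (log2 fold change 1.22, edgeR adjusted p = 0.0192; 0.0559, 0.0624 and 0.0694 without knockout replicate 3, control replicate 2 and control replicate 3). Ly6c2, a marker of classical monocytes, was 13.6 CPM in knockout replicate 3 and 0.373 to 1.18 CPM in the other 5 libraries, and Ccr2, another, was 1.74 to 2.55 CPM in all 6. None of the 14 markers was at 0 in every library. Their part in the Apoe and Trem2 values was not tested; in bulk libraries more cells of a type and more RNA per cell cannot be told apart. Trem2 without knockout replicate 3 kept a log2 fold change of 1.96 (edgeR adjusted p = 0.000132). That fit still holds knockout replicates 1 and 2, whose marker sums of 190.6 and 197.0 CPM were also above control. It therefore cannot speak to the part of these markers.

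The genes beside Apoe and those of its receptors and lipid handling were called in both directions. Of 19 tested, 4 were higher, 2 lower and 13 did not pass (median log2 fold change 0.07), beside 5.93% of all genes called higher and 6.01% lower. On library totals 1 was higher and 2 lower. Apoc1, the neighbouring apolipoprotein gene 3448 bases from Apoe, went the other way from it: 30.2, 23.9 and 20.8 CPM in control and 16.2, 15.1 and 11.1 CPM in knockout (log2 fold change -0.82, edgeR adjusted p = 0.0174), with the call lost without control replicate 1 or 2 or knockout replicate 3 (0.0814, 0.0504 and 0.0588). Apoc2, which activates lipoprotein lipase, was at 0.78 (edgeR adjusted p = 0.116) and Apoc4 at 2.43 (edgeR adjusted p = 0.275), from 0 to 2.68 CPM. Scarb1, a receptor for high-density lipoprotein, fell from 82.0, 83.6 and 97.7 CPM to 52.7, 44.5 and 53.8 CPM (log2 fold change -0.80, edgeR adjusted p = 0.00319). Lrpap1, a chaperone of the receptors that take up APOE, rose from 94.6, 84.9 and 89.4 CPM to 173.8, 137.7 and 149.3 CPM (log2 fold change 0.78, edgeR adjusted p = 0.00362; 0.46 on library totals, adjusted p = 0.2). The lipase gene Lpl, the sterol sensor Nr1h3 and the exporter Abcg1 rose by 0.82, 0.60 and 0.59, with calls lost in 4, 4 and 6 of the fits with a library left out (adjusted p up to 0.103, 0.089 and 0.112), and were at 0.48, 0.28 and 0.27 on library totals (adjusted p = 0.0341, 0.549 and 0.31).

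Among 15 tested genes reported as ligands of TREM2 or TREM1, Apoe included, 1 was higher and 2 were lower. The shares over all genes were 5.93% higher and 6.01% lower. On library totals 2 of the 15 were higher and 2 lower, beside 1.96% and 6.31% of all genes. Tgm2, which encodes transglutaminase 2, stood at 93.8, 57.4 and 82.7 CPM in control and 212.7, 247.6 and 236.2 CPM in knockout (log2 fold change 1.57, edgeR adjusted p = 0.000387). Sema6d, a semaphorin that binds plexin A1, stood at 3.26, 1.31 and 1.91 CPM in control and 0.174, 0.266 and 0.465 CPM in knockout (log2 fold change -2.81, edgeR adjusted p = 0.00713). The nuclear protein gene Hmgb1 fell by 0.56 (edgeR adjusted p = 0.0251), a call lost in 5 of the 6 fits with a library left out (up to 0.0909). Clu, a further apolipoprotein gene, was at 0.23 (edgeR adjusted p = 0.499), and Apoa1 at 1.27 (edgeR adjusted p = 0.525) on 0 to 3.53 CPM. Lgals3, which encodes galectin 3 and was picked out after its values were seen, stood at 5436 to 9368 CPM in control and 11180 to 17290 CPM in knockout without overlap, but did not pass (log2 fold change 0.92, edgeR adjusted p = 0.0592).

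Gpnmb, the glycoprotein that marks lipid-loaded macrophages, did not pass the test while Trem2 did. Gpnmb (ENSMUSG00000029816) lies on chromosome 6 at 49036546 to 49070929, plus strand. It stood at 352.7, 373.8 and 463.6 CPM in control and at 493.3, 538.9 and 441.3 CPM in knockout, and control replicate 3 lay above knockout replicate 3. The log2 fold change was 0.31 with a 95% interval of -0.03 to 0.65 (edgeR adjusted p = 0.245), and on library totals it was -0.05. Relative to Trem2 in the same library, Gpnmb was 3.93, 3.98 and 5.30 in control and 1.25, 1.72 and 1.08 in knockout (exact permutation p = 0.1, adjusted 0.15). Over all genes, 5.93% were called higher and 6.01% lower by edgeR with TMM, and 1.96% and 6.31% on library totals. Of 14 tested regulators and partners of GPNMB, 2 were higher and 0 lower by edgeR with TMM, and 1 and 0 on library totals. The transcription factors Mitf, Tfe3 and Tfeb that are known to drive it were at 0.35, 0.23 and -0.21 (edgeR adjusted p = 0.377, 0.374 and 0.372). Sdc4, a syndecan that binds GPNMB, rose from 1.96, 2.09 and 1.96 CPM to 6.25, 5.6 and 7.99 CPM (log2 fold change 1.72, edgeR adjusted p = 0.000976). Cd44, another binding partner, rose by 0.47 (edgeR adjusted p = 0.0324), with the call lost whichever library was left out (0.0613 to 0.117), and was at 0.16 on library totals (adjusted p = 0.664).

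**Figure D4:**
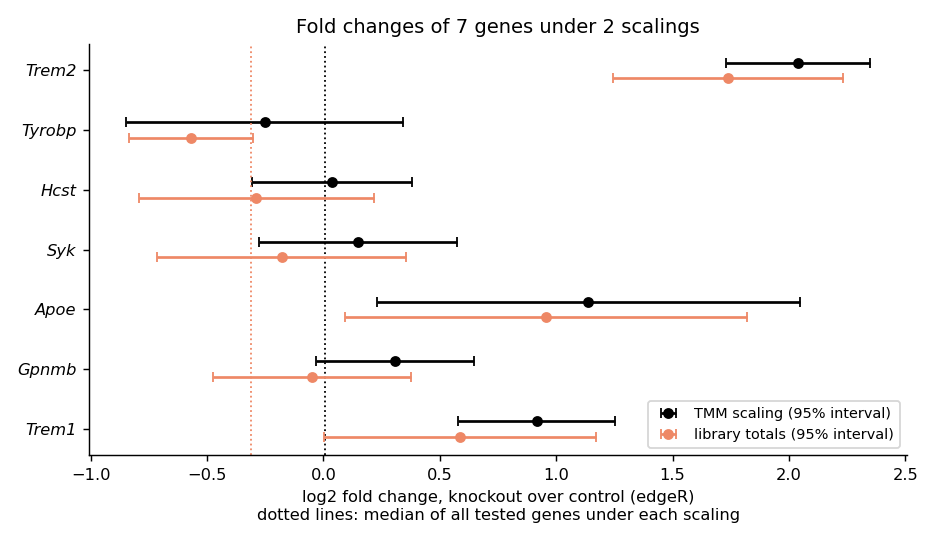
Log2 fold changes of the 7 genes with 95% intervals from the edgeR fit with TMM scaling (black) and with library totals (orange); dotted lines mark the median of all tested genes, 0.01 and -0.31. Trem2 lies to the right of 1 under both, and Hcst, Syk and Gpnmb change sign between them.

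Genes reported to rise in TREM2-dependent lipid-associated macrophages and microglia of the mouse were mostly on the higher side in knockout. Of 39 tested, 14 were higher, 2 lower and 23 did not pass, so 41.0% were called against 11.9% of all genes; 34 had a positive log2 fold change, and the median was 0.58 against 0.01. The list was written with earlier results of these data known, so its count is no independent evidence. In CPM scaled by TMM, the sum of the monocyte and interstitial macrophage markers was 190.6 to 372.9 in knockout and 91.7 to 158.5 in control. Without the TMM factors these sums overlapped between groups. The part of these markers' cells in this list's values was not tested. The 6 with the smallest p were Igf1, Spp1, Mmp12, Cd63, Ccl3 and Ch25h. Igf1, a growth factor gene, had a log2 fold change of 3.16, the matrix protein gene Spp1 of 4.22 and the elastase gene Mmp12 of 3.61. Cd63, a tetraspanin of late endosomes, stood at 295.7, 386.8 and 270.9 CPM in control and 2379, 1930 and 1861 CPM in knockout. Ccl3, a chemokine, stood at 20.4, 22.8 and 18.0 CPM in control and 78.0, 59.8 and 79.8 CPM in knockout. Ch25h, which makes an oxysterol, rose from 42.4, 53.4 and 44.9 CPM to 106.8, 101.4 and 75.1 CPM (log2 fold change 1.01, edgeR adjusted p = 0.00264), and was at 0.65 on library totals (adjusted p = 0.0872).

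Among the 23 genes of the list that did not pass were Cst7, Cd9, Axl and Clec7a. Cst7, a protease inhibitor gene that is high in TREM2-dependent microglia, was at 0.338 to 1.09 CPM in control and 0.748 to 1.18 CPM in knockout (edgeR adjusted p = 0.881). The tetraspanin gene Cd9 was at 0.32 (edgeR adjusted p = 0.509). Axl, a receptor for dying cells, and Clec7a, a receptor for fungal glucan, were picked out after their values were seen and were at 0.02 and 0.10 (edgeR adjusted p = 0.969 and 0.786). Cd52, a small surface glycoprotein gene and 1 of the 2 lower genes, fell by 0.80 (edgeR adjusted p = 0.00645). Of the 16 genes called in this list, 8 kept their call whichever library was left out, 7 of them higher and 1 lower, and on library totals 10 of the 14 higher and both lower genes were called.

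**Figure D5:**
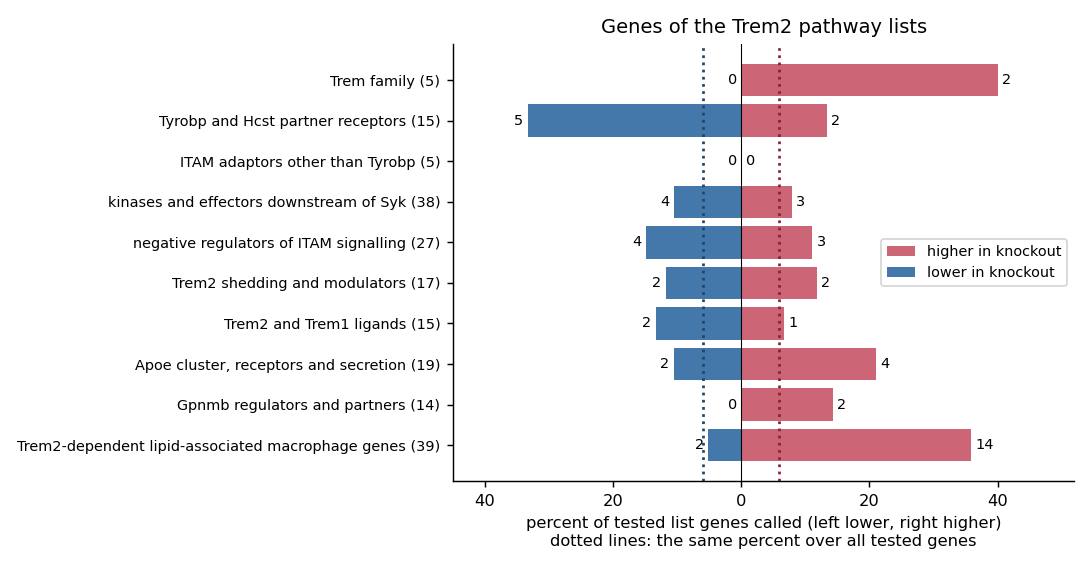
Percent of tested genes called higher (red, right) or lower (blue, left) in knockout in each pathway list, with the number called at the bar end and the number tested in brackets; dotted lines mark 5.93% and 6.01%, the shares over all genes. The list of lipid-associated macrophage genes stands at 14 of 39 higher and the partner receptors at 5 of 15 lower.

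Over the 6 libraries, the genes whose profile was most like that of Trem2 were Ccl3, Clec4d, Bcap31, Phlda3, Ephx1 and Msr1, in that order. Likeness was the root mean square difference between centred log2 CPM profiles among 4034 genes with a mean of at least 5 FPKM in the higher group, and it was 0.13 for Ccl3 and 0.24 for Msr1. Clec4d, a C-type lectin receptor, stood at 15.1, 21.7 and 19.5 CPM in control and 67.5, 61.9 and 76.5 CPM in knockout. Bcap31, a membrane protein of the endoplasmic reticulum, stood at 195.1, 195.4 and 177.0 CPM in control and 1005, 885.1 and 847.0 CPM in knockout. Msr1, a scavenger receptor for modified lipoproteins, stood at 23.9, 18.0 and 21.6 CPM in control and 65.1, 76.6 and 85.5 CPM in knockout. Phlda3, a target of p53, and Ephx1, an epoxide hydrolase gene, were 3.34 and 3.49 times higher in knockout. All 6 were also called higher in knockout, as Trem2 was, and 6 libraries cannot order such genes finely.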

How the data were processed

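Per the file headers, the authors deposited an expected count for each gene in each of 6 libraries. FPKM values stand beside them, likewise made by the authors. The submitters' processing notes list the GRCm38 build and, without roles or versions, HISAT2, StringTie, cutadapt, FastQC, edgeR and DESeq2. The deposited counts are whole numbers, but in genes with 1 transcript and over 500 units 87.1 to 89.8% per library lay within 1% of FPKM times transcript length times a constant, and the commonest nonzero value was 4. They were read as estimates, about 4 units to a read pair.

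Genes passing edgeR's filterByExpr were scaled by TMM and tested by its quasi-likelihood test with no covariate, adjusted by Benjamini-Hochberg over all 14797 genes at 0.05. Standard errors divide each log2 fold change by the root of its F statistic, and 95% intervals use the test's degrees of freedom. On simulated counts for this comparison, over 14190 genes, 90 of 100 2-fold and 100 of 100 4-fold changes were recovered, with 11 false calls among 201. Models ran in R 4.3.3 with edgeR 4.0.16, DESeq2 1.42.0 and limma 3.58.1 (trended variance). Tables and plots used Python 3.11.15 with numpy 2.4.6, pandas 2.3.3 and matplotlib 3.10.9. Alternatives were other scalings, filters and tests, a replicate block, and leaving libraries out.

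The members and the 10 pathway lists were chosen with earlier results of these data known. Named list genes are up to 6 called genes with the smallest p and the first 3 symbols of each list; the genes most like Trem2 were named by the measure given. Neighbouring genes, markers and those so described were chosen after their values were seen. Floors of 3 read pairs cover counting error only. Some list genes are counted in their lists but not reported here by name.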

Additional observations from a re-analysis of the deposited data

How the results depend on the processing

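Trem2 kept its direction and call in all 17 alternatives. Trem1 kept its direction and lost its call under scaling to totals (0.59), by limma with pseudocounts of 1 and 0.1 FPKM (0.52 and 0.59) and without knockout replicates 1 and 2 (0.89), an alternative chosen after seeing the data. Tyrobp gained a call on library totals (-0.57) and with both limma fits (-0.56 and -0.56). Apoe gained one without a filter (1.11), without knockout replicate 1 (1.51) and without knockout replicates 1 and 2 (1.91). The sign turned on library totals and in the 2 limma fits for Hcst (-0.29, -0.28 and -0.29), Syk (-0.18, -0.12 and -0.17) and Gpnmb (-0.048, -0.012 and -0.011), and without knockout replicates 1 and 2 for Hcst (-0.079) and Syk (-0.18). These settings moved the median of all genes to -0.31, -0.11, -0.26 and -0.05. Leaving out 1 library gave log2 fold changes of 1.96 to 2.14 for Trem2, -0.47 to -0.05 for Tyrobp, -0.10 to 0.17 for Hcst, -0.035 to 0.31 for Syk, 0.50 to 1.51 for Apoe, 0.22 to 0.43 for Gpnmb and 0.81 to 1.00 for Trem1.

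Over all genes 878 were higher and 889 lower, and on library totals 290 and 933. The higher count was 226 and 264 in these limma fits, and 285 without knockout replicates 1 and 2, where the lower count was 196. Leaving out 1 library gave 455 to 691 higher and 372 to 565 lower. In the pathway lists the higher genes went from 32 to 17 on library totals, 14 and 15 with limma and 14 without knockout replicates 1 and 2, and the lower genes from 20 to 5 in the last; leaving out 1 library gave 18 to 27 higher and 8 to 14 lower. The causes were not tested beyond the smaller number of samples in fits that leave libraries out. Over all genes, same-numbered libraries of the 2 groups did not deviate together (correlations 0.0276, -0.0398 and 0.000329). Whether they share a batch was not tested, and a correlation over all genes cannot settle it. A replicate block gave 770 higher and 699 lower and changed no call among the 7 genes. With the block, the standard error of Tyrobp went from 0.27 to 0.13.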

Other observations

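Igf2bp3, which encodes an RNA-binding protein of fetal tissues, lies 14293 bases past the end of Gpnmb on the opposite strand and was looked at after its values were seen. It stood at 0.294, 0.389 and 0.315 CPM in control and at 5.34, 3.60 and 5.17 CPM in knockout (log2 fold change 3.81, edgeR adjusted p = 6.96e-05), and its call held with each library left out (adjusted p up to 0.00104). Malsu1, a mitochondrial ribosome factor gene whose far end overlaps Igf2bp3, was at 0.10 (edgeR adjusted p = 0.725). In CPM scaled by TMM, the spread of Trem2 among the control libraries was small. Its coefficient of variation was 3.63% against a median of 10.8% over 3703 genes. On deposited FPKM the control libraries were less alike, at 12.5, 15.2 and 16.6 (mean 14.8, SD 2.06).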
